A study of Mus musculus with 4 samples.

Results

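F-box proteins are the parts of SCF ubiquitin ligases that choose the substrate. The F-box holds the linker SKP1, which joins it to the cullin CUL1 and the RING protein RBX1, and the rest of the protein holds the target that is to be marked with ubiquitin for the proteasome. The family is named by that second part. Fbxl proteins carry leucine-rich repeats, Fbxw proteins carry WD40 repeats, and Fbxo proteins carry other domains or none that is recognised. In blood-forming cells F-box proteins are known for turning over cyclins, MYC, NOTCH and the iron regulatory protein IRP2.

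The genes described here were taken by symbol alone, as every gene whose symbol starts with Fbxl, Fbxo or Fbxw followed by a digit, and where a gene had more than 1 probe set, the one that was brightest on average over the 4 arrays stood for it. This gave 71 of 19938 genes, of which 18 were Fbxl, 36 Fbxo and 17 Fbxw genes. They came from 74 probe sets, and 3 genes (Fbxl7, Fbxo31 and Fbxw7) had 2 each. One member, Fbxl12os, is a transcript from the strand opposite Fbxl12 and codes for no F-box protein. A pair of further probe sets carried several Fbxw symbols and were left out by the rule.

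The arrays measured RNA from lysed early erythroid progenitors of C57BL/6 mouse fetal liver at E14.5. The cells had been depleted of lineage-positive, Sca-1, CD16/32, CD41 and CD34 cells and sorted for c-Kit with low CD71. Control rabbit IgG had pulled down the RNA of 2 arrays. For the other 2 the antibody was one to an RNA-binding protein (RBP) that the labels leave unnamed. From the published study it is taken here to be ZFP36L2, a zinc finger protein that binds AU-rich elements of mRNAs, and this was not checked. All groups share the same strain, age and cells, and no array of the unprecipitated RNA was used here, so a level on an IgG or RBP array is what was recovered, not the amount in the cell. Fewer cells of a type and less RNA per cell cannot be told apart in such samples.

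Values are log2 levels per probe set, and every difference below is RBP minus IgG on that scale, so that a value of 1 is a 2-fold change. Olfactory, vomeronasal and taste receptor genes stand for unexpressed genes, and their 95th percentile, 5.37, is used as the background level. Over all probe sets the IgG arrays had narrower distributions than the RBP arrays (interquartile ranges of 2.87 and 2.91 against 3.61 and 3.73). With 2 arrays a group precision is limited, and the labels do not say whether a group's arrays go back to separate preparations of cells. The p-values therefore rest on the spread between arrays alone, and that spread may be technical. An exact two-sided permutation test of 2 arrays against 2 cannot give a p below 0.333. The 8 erythroid progenitor markers had mean levels of 9.31 to 11.41, all above background. Of these, 4 were higher with the RBP antibody (Kit, Gata2, Epor and Tal1) and 0 lower, with a median difference of 0.59. Among all genes at levels of 9 to 10, 57.8% were higher. Of 30 markers of other cell types 1 was higher (Gp9) and 2 were lower (Cd68 and Elane) with the RBP antibody, against 23.8% and 6.54% of all genes. These 30 had list medians of 6.60 and 6.15 with IgG against 6.52 and 6.30 with the RBP antibody, and 21 lay above background. Several of them went with the array number rather than the antibody, such as albumin (Alb), at 7.58 and 5.70 with IgG against 7.77 and 6.27 with the RBP antibody, and the granulocyte gene Mpo, at 11.40 and 10.53 with IgG against 11.49 and 10.56 with the RBP antibody. Their part in the results below was not tested.

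The F-box genes with the largest differences toward the RBP antibody were Fbxo45, Fbxo10, Fbxo38 and Fbxo11. A gene is called here where limma's p, adjusted by Benjamini-Hochberg for every gene tested, was under 0.05. On that rule 25 of 71 F-box genes (35.2%) were higher on the RBP arrays, against 23.8% of all genes. Of these 25, 15 were Fbxo genes, a class that made up 36 of the 71 members and 30 of the 51 above background. The test called 5 members (7.04%) lower, against 6.54% of all genes. At least 2-fold higher, with both RBP arrays above both IgG arrays, were 16 members, against 13.5% of all genes. None was 2-fold lower with both RBP arrays below, against 246 of 19938 genes. Both RBP arrays lay above both IgG arrays for 34 members (47.9%), against 37.4% of all genes. They lay below for 19 members (26.8%), against 36.2% of all genes. Together the arrays did not overlap for 74.6% of members, near the 73.7% of all genes. The median difference was 0.19 over the members and -0.023 over all genes.

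These counts went with the level of the genes. All 25 higher members lay among the 51 with a mean level above background, where 36.5% of all genes were higher and 6.54% lower. At or below background 6.54% of all genes were lower, and 2 of the 5 lower members lay there. Among all genes with mean levels of 7 to 8 the higher share was 47.1%, at 8 to 9 it was 56.4% and at 9 to 10 57.8%, and of the members 5 of 9, 13 of 17 and 3 of 5 were higher there. The mean includes the RBP arrays, so this split is not independent of the difference. When the trend of the difference on mean level over all genes (a loess curve) was subtracted, 4 members were higher (Fbxo45, Fbxo25, Fbxw7 and Fbxl8) and 1 was lower (Fbxl15), against 5.01% and 5.34% of all genes. The member median was then 0.070. Quantile normalization, which gives all arrays 1 distribution, left 8 higher and 0 lower, where 11.1% and 2.77% of all genes were. Centring, which subtracts the median of those receptor genes from each array, gave 33 higher and 0 lower, against 35.6% and 1.59% of all genes. Over all genes the median difference became 0.16 and 0.29 under these scalings. Without RBP array 1, and likewise without RBP array 2, 8 members were higher and 0 lower, with 25 and 23 higher and 1 and 1 lower at an unadjusted limma p under 0.05. Of all genes 8.65% were then higher and 0.497% lower without RBP array 1, and 10.3% higher and 0.757% lower without RBP array 2.

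**Figure D1:**
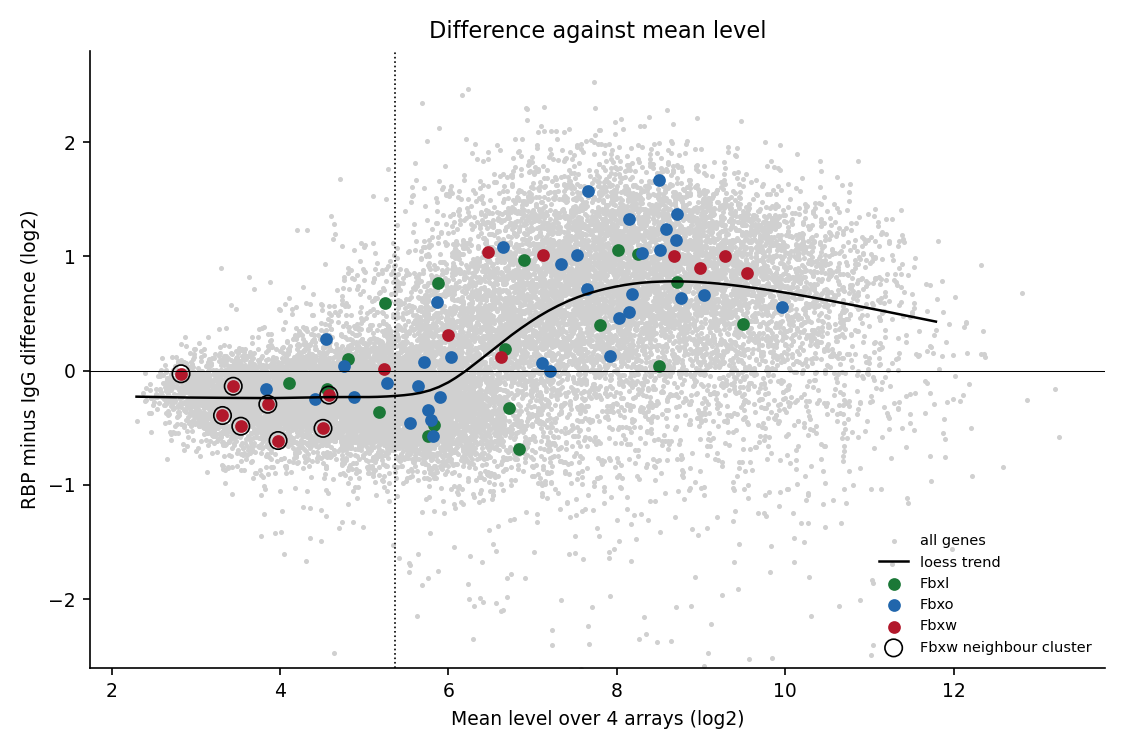
RBP minus IgG difference (log2) against the mean level over the 4 arrays (log2), for all genes (grey) and the F-box genes by class (coloured), with the loess trend over all genes (line), the background level (dotted) and the Fbxw genes of the neighbour cluster ringed. Like all genes, the members tended to higher differences at higher levels. Their median was -0.34 for the ringed genes and 1.02 at mean levels of 8 to 9, where that of all genes was 0.78. Fbxo45, the highest member at 1.66, lies above the trend, and 20 genes lie outside the plotted range.

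Counts and levels by class are a description, since genes are not replicates and classes were not tested against each other. The number of members above background was 30 of 36 for Fbxo, 13 of 18 for Fbxl and 8 of 17 for Fbxw, and of all genes 36.5% were higher above background and 0.83% at or below it. In the Fbxo class 15 of 36 genes were higher and 1 lower, with a median difference of 0.49 and a median level of 7.27. In the Fbxl class 4 of 18 were higher and 2 lower, with a median difference of 0.14, or 0.19 without Fbxl12os, and a median level of 6.70. In the Fbxw class 6 of 17 were higher and 2 lower, with a median difference of 0.017 and a median level of 5.24, below background. The Fbxw median turned negative without either IgG array (-0.027 and -0.026). With the trend on level removed the class medians drew together, at 0.070 for Fbxo, 0.12 for Fbxw and -0.040 for Fbxl, which thereby turned negative.

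**Figure D2:**
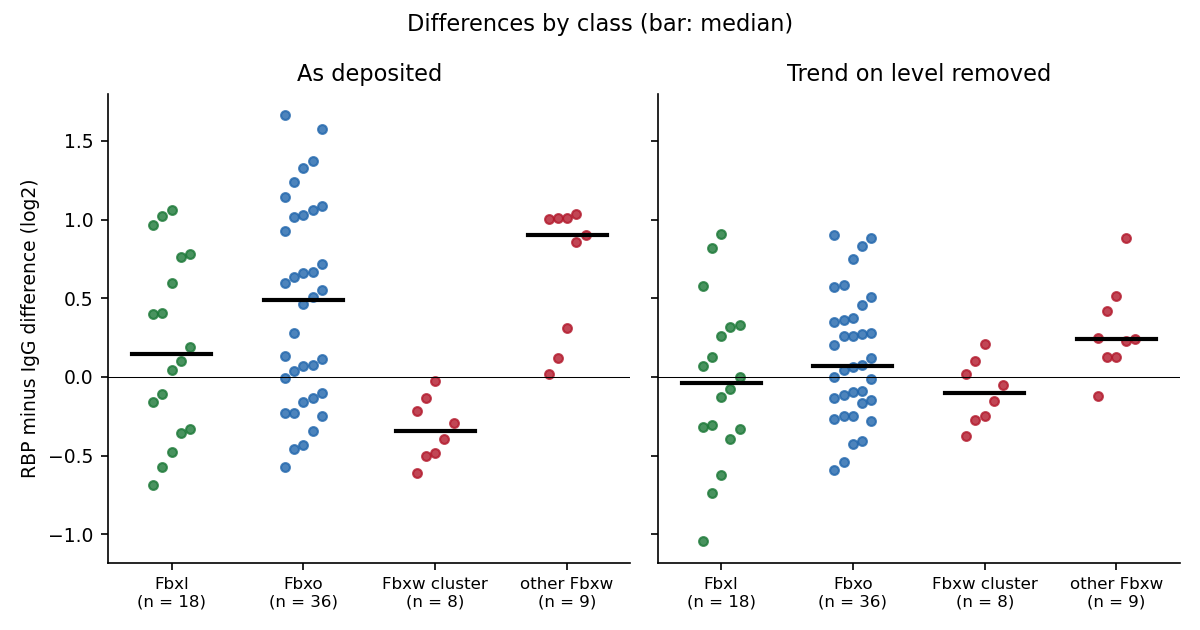
RBP minus IgG difference (log2) of each gene (points) and the median (bar) for the Fbxl and Fbxo classes and for the Fbxw class split into the neighbour cluster and the other genes, as deposited (left) and with the trend on level removed (right). The medians run from -0.34 to 0.90 as deposited and from -0.10 to 0.24 after removal, where the Fbxl median changes sign.

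The Fbxo class held the members with the largest differences. Fbxo45, an F-box protein of the nervous system that works with the large ligase MYCBP2 in place of CUL1, was at 7.61 and 7.72 with IgG against 9.55 and 9.11 with the RBP antibody. Both RBP arrays lay well above both IgG arrays, and the difference was 1.66 ± 0.19 (SE; adjusted p = 0.00568 by limma), or 3.17-fold, rank 254 of 19938 genes. It was the member that kept its call in all 11 alternatives. Fbxo10, reported to target the survival protein BCL2, was at 6.59 and 7.14 with IgG against 8.55 and 8.34 with the RBP antibody. Its IgG arrays were further apart than its RBP arrays, with no overlap, and it differed by 1.58 ± 0.22 (SE; adjusted p = 0.0071 by limma).

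Both genes next in order had tight arrays. Fbxo38, which marks the T-cell inhibitory receptor PD-1 for degradation, was at 8.04 and 8.02 with IgG against 9.46 and 9.34 with the RBP antibody, a difference of 1.37 ± 0.14 (SE; adjusted p = 0.00558 by limma). Fbxo11, an adaptor for BCL6 that also acts on the chromatin repressor BAHD1 in erythroid cells, was at 7.44 and 7.51 with IgG against 8.80 and 8.81 with the RBP antibody. Its arrays differed by less than 0.1 within each group, and the difference was 1.33 ± 0.14 (SE; adjusted p = 0.00558 by limma), or 2.51-fold. Fbxo10, Fbxo11 and Fbxo38 kept their calls without any single array and with quantile normalization, and narrowly lost them with the trend on level removed (limma, adjusted p = 0.0592, 0.0593 and 0.0587).

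The rest of the leading Fbxo genes were 2-fold or more higher. Fbxo33, an adaptor for the RNA-binding protein YB-1, was at 8.10 and 7.82 with IgG against 9.13 and 9.27 with the RBP antibody, a difference of 1.24 ± 0.17 (SE; adjusted p = 0.00653 by limma). Fbxo31, which turns over cyclin D1, was at 8.15 and 8.11 with IgG against 9.54 and 9.01 with the RBP antibody. RBP array 1 stood above RBP array 2 there, both over the IgG arrays, and the difference was 1.14 ± 0.21 (SE; adjusted p = 0.0131 by limma). Its second, dimmer probe set gave 1.53 ± 0.21 (limma over all probe sets, adjusted p = 0.00711), so both moved the same way. Fbxo25, a nuclear F-box protein, was a dimmer gene, at 5.97 and 6.25 with IgG against 7.12 and 7.26 with the RBP antibody. Its groups were well apart, with a difference of 1.08 ± 0.17 (SE; adjusted p = 0.00846 by limma) that rested on a lower level than those of the genes above.

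Of the cell cycle members, Fbxo5 encodes EMI1, an inhibitor of the anaphase-promoting complex. It was at 7.92 and 7.65 with IgG against 8.79 and 8.84 with the RBP antibody, with no overlap, a difference of 1.03 ± 0.16 (SE; adjusted p = 0.00867 by limma). Fbxo42, an adaptor that acts on p53, was at 7.94 and 8.02 with IgG against 8.95 and 9.14 with the RBP antibody, a difference of 1.06 ± 0.15 (SE; adjusted p = 0.00733 by limma). Fbxo28, which ubiquitylates MYC, was at 6.97 and 7.07 with IgG against 7.86 and 8.21 with the RBP antibody, a difference of 1.02 ± 0.18 (SE; adjusted p = 0.0114 by limma). RBP array 2 was the higher for these last genes, and the groups stayed apart. Without RBP array 1, Fbxo31 (0.0826) and Fbxo5 (0.0602) missed the threshold by limma's adjusted p. Without RBP array 2, Fbxo25 (0.0622), Fbxo42 (0.0619), Fbxo5 (0.0622) and Fbxo28 (0.0878) did. With quantile normalization Fbxo33, Fbxo31, Fbxo5, Fbxo42 and Fbxo28 lost their calls (limma, adjusted p of 0.0528 to 0.129), and with the trend on level removed the same 5 did (0.141 to 0.357).

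**Figure D3:**
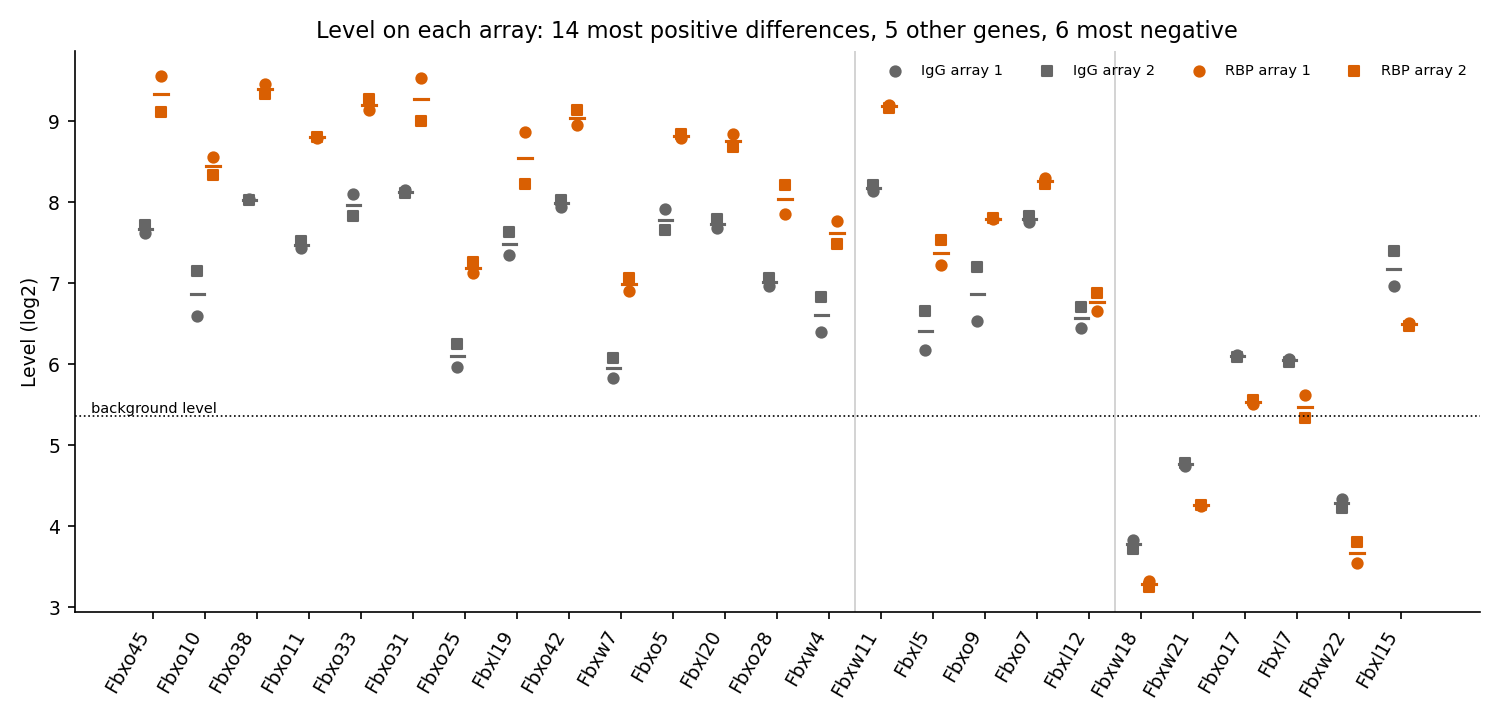
Level (log2) on each of the 4 arrays (IgG grey, RBP orange; circles array 1, squares array 2; bars group means) for the 14 F-box genes with the most positive differences, 5 other genes named for their roles and the 6 with the most negative differences, with the background level dotted. For the 14 genes at left both RBP points lie above both IgG points, and for the 6 at right both lie below.

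The other called Fbxo genes were higher by less. Fbxo9, an adaptor in growth factor and mTOR signalling, was at 6.53 and 7.20 with IgG against 7.79 and 7.80 with the RBP antibody. IgG array 1 was the lowest of the 4, and the difference was 0.93 ± 0.24 (SE; adjusted p = 0.0356 by limma). Fbxo46 (0.72 ± 0.18), Fbxo30 (0.67 ± 0.15), Fbxo21 (0.66 ± 0.19) and Fbxo22, an adaptor for the heme-sensing repressor BACH1 (0.63 ± 0.16), passed with limma's adjusted p of 0.0254 to 0.0447. All 5 calls were lost without RBP array 1 (limma, adjusted p of 0.125 to 0.328), without RBP array 2 (0.0794 to 0.205), with quantile normalization and with the trend on level removed, where Fbxo21, Fbxo22 and Fbxo30 turned negative (-0.11, -0.15 and -0.092). Fbxo21 was also lost without IgG array 1 (0.072) or IgG array 2 (0.0728) and with limma's trend and robust options (0.0525), and Fbxo46 without IgG array 2 (0.0559).

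Fbxo7, whose protein also binds the proteasome regulator PI31 and which is known for its effect on red cells and in inherited parkinsonism, did not pass. It was at 7.76 and 7.83 with IgG against 8.29 and 8.22 with the RBP antibody. Both RBP arrays were above both IgG arrays by a small step, 0.46 ± 0.14 (SE; adjusted p = 0.0574 by limma). The call changed with the setting. It passed after centring on the chemosensory genes (0.78, limma adjusted p = 0.00923) and without IgG array 2 (0.50, 0.0459), and its sign turned with quantile normalization (-0.0098) and with the trend on level removed (-0.28). Fbxo3 (0.55 ± 0.19), the brightest member at a mean level of 9.96, and Fbxo8 (0.51 ± 0.22), which also carries a Sec7 domain, did not pass either (limma, adjusted p = 0.0776 and 0.132). Both passed after centring (0.0206 and 0.0319 by limma), and Fbxo3 without IgG array 2 (0.0213). Fbxo34 gave 0.13 ± 0.15, although its level of 7.91 was like that of called members.

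For 3 uncalled Fbxo genes the IgG arrays lay far apart, with IgG array 1 the higher, and which of them was the odd one cannot be told. Fbxo36 was at 7.71 and 6.45 with IgG against 7.04 and 7.26 with the RBP antibody, so that the RBP arrays lay between the IgG arrays, and it gave 0.070 ± 0.40 (SE; adjusted p = 0.905 by limma). Fbxo48 was at 6.13 and 4.99 with IgG against 6.03 and 6.29 with the RBP antibody and gave 0.60 ± 0.37 (SE; adjusted p = 0.255 by limma). Fbxo4, an adaptor for cyclin D1, was at 6.35 and 5.60 with IgG against 6.04 and 6.14 with the RBP antibody and gave 0.12 ± 0.26 (SE; adjusted p = 0.749 by limma). Without IgG array 1, Fbxo48 (1.17, limma adjusted p = 0.0128) and Fbxo36 (0.70, 0.0341) were called higher, while without IgG array 2 the difference of Fbxo36 was -0.56 and that of Fbxo4 -0.26.

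A set of 5 Fbxo genes, of a subfamily known for recognising sugar chains on misfolded glycoproteins, was grouped after their values had been seen. Whether each of the 5 proteins does so was not checked. They are Fbxo2, Fbxo6 and Fbxo44, which are neighbours in the RefSeq gene table, and Fbxo17 and Fbxo27, neighbours elsewhere. Apart from Fbxo6 their mean levels were between 5 and 6, where 4.06% of all genes were higher and 10.3% lower. None of the 5 was higher, and limma called 1 lower. That gene, Fbxo17, was at 6.12 and 6.09 with IgG against 5.51 and 5.55 with the RBP antibody, a difference of -0.57 ± 0.14 (SE; adjusted p = 0.0305 by limma). The others gave -0.34 ± 0.17 for Fbxo2, -0.23 ± 0.15 for Fbxo44, -0.14 ± 0.16 for Fbxo27 and -0.0065 ± 0.18 for Fbxo6, none of which passed. At an unadjusted limma p under 0.05, 0 of the 5 were higher, against 271 of the 4142 genes at levels of 5 to 6. Fbxo27 and Fbxo44 turned positive after centring and with quantile normalization, Fbxo6 after centring and Fbxo27 with the trend on level removed. The muscle genes Fbxo32, which encodes atrogin-1, and Fbxo40 gave 0.078 ± 0.17 and -0.43 ± 0.15, and Fbxo41 gave -0.46 ± 0.14. Fbxo41 passed as lower with the trend and robust options (limma, adjusted p = 0.0431), and Fbxo40 passed as lower without IgG array 1 (-0.51, limma adjusted p = 0.0472).

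In the Fbxl class 4 genes were higher. Fbxl5 encodes the iron sensor that turns over IRP2, the product of Ireb2, when iron is plentiful. It was at 6.17 and 6.65 with IgG against 7.22 and 7.53 with the RBP antibody. The RBP arrays lay above the IgG arrays, each pair more than 0.3 apart, and the difference was 0.97 ± 0.22 (SE; adjusted p = 0.0241 by limma). Fbxl20, known from synapses, was at 7.68 and 7.79 with IgG against 8.84 and 8.68 with the RBP antibody, a difference of 1.02 ± 0.15 (SE; adjusted p = 0.00774 by limma). Its close relative Fbxl2, which acts on regulatory subunits of PI3 kinase, was at 6.77 and 7.003 with IgG against 6.28 and 6.83 with the RBP antibody. The Fbxl2 arrays overlapped and it gave -0.33 ± 0.23 (SE; adjusted p = 0.298 by limma); the difference between both genes was not tested.

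Fbxl19, a CpG island binding protein related to the demethylases Kdm2a and Kdm2b, was at 7.35 and 7.63 with IgG against 8.87 and 8.22 with the RBP antibody, with RBP array 1 the highest, and it differed by 1.06 ± 0.25 (SE; adjusted p = 0.0268 by limma). Fbxl8 was near background with IgG, at 5.55 and 5.43 with IgG against 6.29 and 6.22 with the RBP antibody. Its difference of 0.76 ± 0.15 (SE; adjusted p = 0.0147 by limma) was one of the calls that remained with the trend on level removed (0.91) and with quantile normalization. Without RBP array 1 all 4 lost their calls by limma's adjusted p (Fbxl5 0.0663, Fbxl20 0.071, Fbxl19 0.147 and Fbxl8 0.137). Without RBP array 2, Fbxl5 (0.135) and Fbxl8 (0.0994) did, and without IgG array 1 Fbxl19 (0.072). Fbxl5, Fbxl19 and Fbxl20 also lost them with quantile normalization (limma, adjusted p of 0.0539 to 0.152) and with the trend on level removed (0.153 to 0.464).

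Limma called 2 Fbxl genes lower. Fbxl15, which acts on the ligase SMURF1 in BMP signalling, was at 6.96 and 7.39 with IgG against 6.51 and 6.47 with the RBP antibody. Both RBP arrays were below both IgG arrays, and it had the most negative difference of the family, -0.69 ± 0.19 (SE; adjusted p = 0.0426 by limma). With the trend on level removed it was -1.04 (limma, adjusted p = 0.0301), and with limma's trend and robust options it just missed (0.0511). Fbxl7, an adaptor for Aurora A, was dim, at 6.07 and 6.03 with IgG against 5.62 and 5.33 with the RBP antibody, and RBP array 2 was just under the background level. It differed by -0.57 ± 0.16 (SE; adjusted p = 0.0474 by limma), and its second probe set, at levels of 3.42 to 3.79, gave -0.25 ± 0.15 (limma over all probe sets, adjusted p = 0.238). The mean of both was not called (-0.41, limma adjusted p = 0.0908).

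The remaining Fbxl genes did not pass. Fbxl17, which monitors dimers of BTB proteins, was at 8.01 and 8.64 with IgG against 9.06 and 9.15 with the RBP antibody and missed narrowly, at 0.78 ± 0.23 (SE; adjusted p = 0.0533 by limma). It passed after centring (0.0181), when only genes above background were tested (0.0399) and without IgG array 2 (limma, adjusted p = 0.0102), whose level was above that of IgG array 1, and with the trend on level removed its difference was -0.0025. Fbxl4, a mitochondrial F-box protein that restrains mitophagy, was at 4.67 and 5.23 with IgG against 5.52 and 5.58 with the RBP antibody and gave 0.60 ± 0.22 (SE; adjusted p = 0.0889 by limma), with IgG levels under background. It passed after centring (0.0277), with quantile normalization (0.0411) and without IgG array 2 (limma, adjusted p = 0.0134). Fbxl12, an adaptor for inhibitors of cyclin-dependent kinases, was at 6.45 and 6.71 with IgG against 6.66 and 6.87 with the RBP antibody, with overlapping groups, and gave 0.19 ± 0.17 (SE; adjusted p = 0.418 by limma). Its opposite-strand transcript Fbxl12os lay below background and gave -0.11 ± 0.15. Bright but uncalled were Fbxl14, an adaptor for SNAIL (0.41 ± 0.24), Fbxl18 (0.40 ± 0.15) and Fbxl6 (0.045 ± 0.17), all of which turned negative with quantile normalization and with the trend on level removed. Fbxl18 passed after centring (limma, adjusted p = 0.015). Fbxl22 gave -0.48 ± 0.15 and passed as lower without IgG array 1 (-0.56, limma adjusted p = 0.0399).

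**Figure D4:**
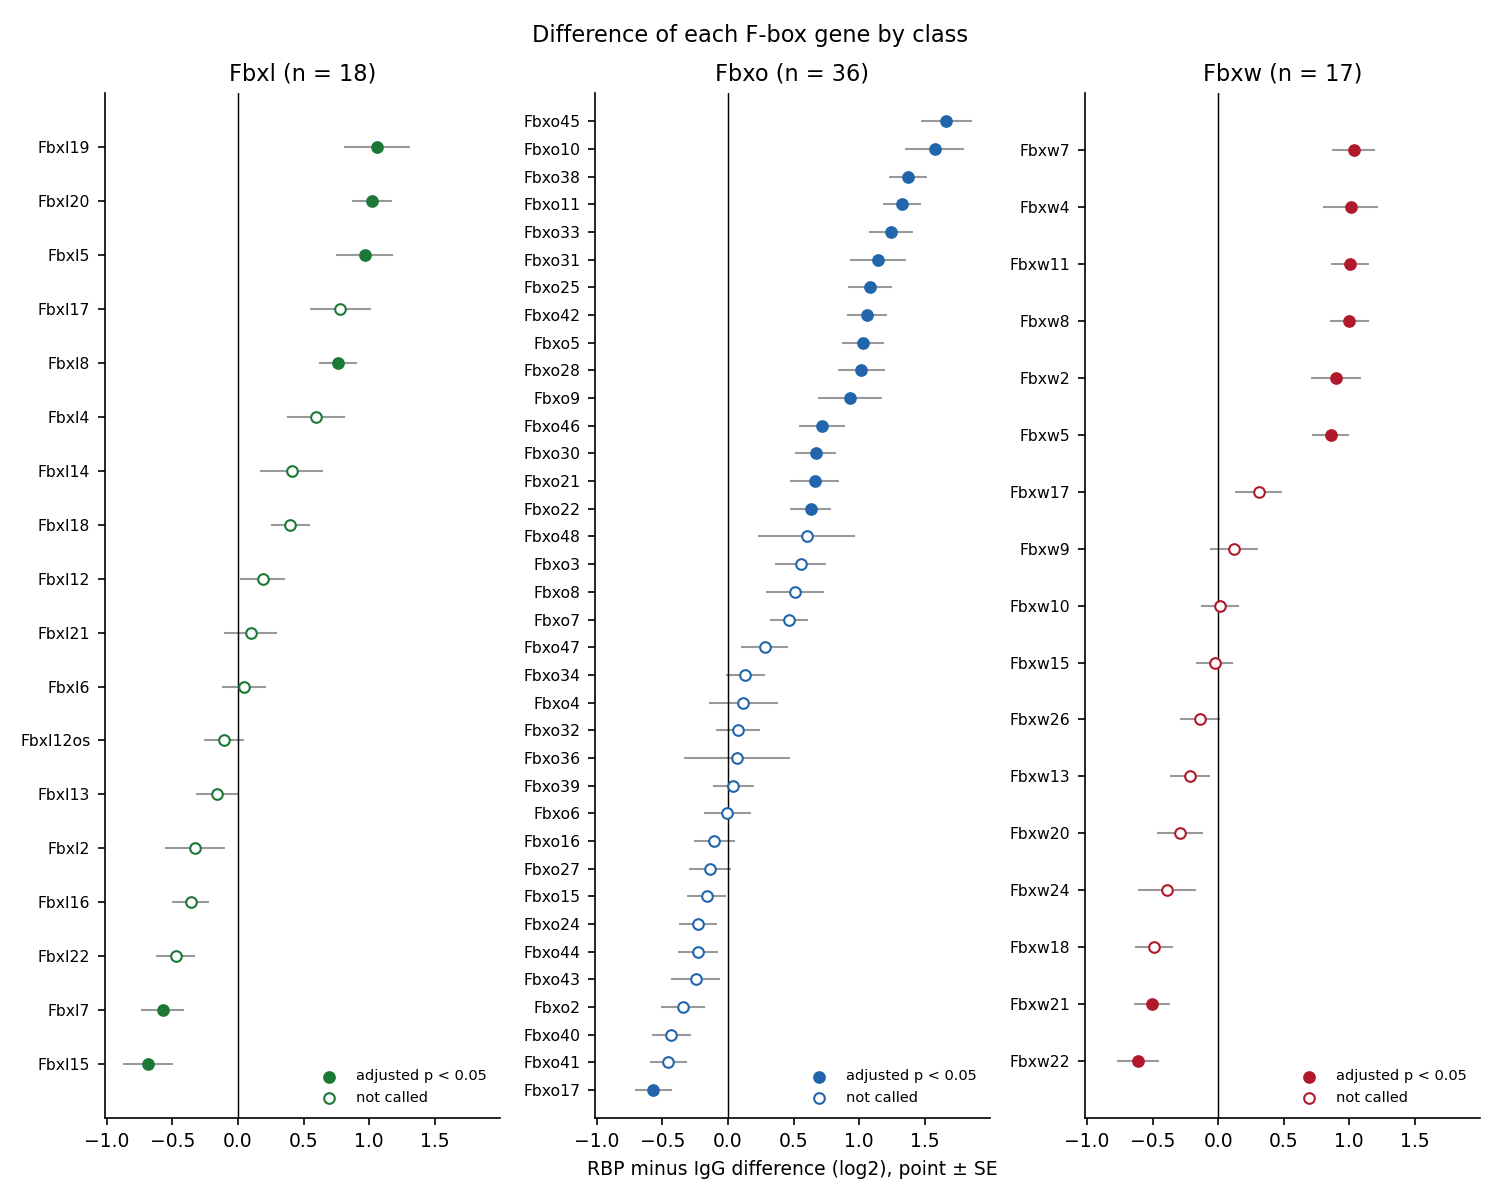
RBP minus IgG difference (log2) of all 71 F-box genes by class (points; filled where limma's adjusted p was under 0.05; bars one standard error either side). Filled points run from 0.63 to 1.66 on the higher side and from -0.69 to -0.50 on the lower side, where no call was kept after centring on the chemosensory genes.

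The Fbxw class fell into parts by where the genes lie, a division made after the values had been seen. The order of genes was read from RefSeq's table for GRCm38.p6. There 15 Fbxw genes follow one another without another protein-coding gene between them, and 8 of them were measured. All 8 lay below background, at mean levels of 2.82 to 4.58, and all had both RBP arrays below both IgG arrays, as did 60.4% of all genes at or below background. Limma called 2 lower and 0 higher (at an unadjusted p under 0.05, 3 and 0). Of the 7110 genes at or below background, 6.54% were lower (at an unadjusted limma p under 0.05, 1384 lower and 120 higher). The median was -0.34 for the 8, against -0.23 for all genes at or below background. Fbxw22 was at 4.33 and 4.23 with IgG against 3.54 and 3.80 with the RBP antibody, a difference of -0.61 ± 0.16 (SE; adjusted p = 0.0381 by limma). Fbxw21 was at 4.74 and 4.78 with IgG against 4.25 and 4.27 with the RBP antibody, a difference of -0.50 ± 0.14 (SE; adjusted p = 0.0435 by limma). Fbxw18 was at 3.83 and 3.72 with IgG against 3.33 and 3.25 with the RBP antibody, and its difference of -0.49 ± 0.15 (SE; adjusted p = 0.053 by limma) just missed, and passed with the trend and robust options (limma, adjusted p = 0.0315). With levels under background, the sizes of these differences are uncertain.

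The others of the cluster, Fbxw24, Fbxw20, Fbxw13, Fbxw26 and Fbxw15, gave -0.39 ± 0.22, -0.29 ± 0.18, -0.21 ± 0.15, -0.14 ± 0.15 and -0.027 ± 0.14. Fbxw13, Fbxw15, Fbxw20 and Fbxw26 turned positive after centring on the chemosensory genes and with quantile normalization, and 3 of these, all but Fbxw20, also with the trend on level removed. Without IgG array 2, Fbxw24 (-0.68, limma adjusted p = 0.0215) and Fbxw18 (-0.54, 0.0385) passed as lower. Both probe sets that carry several symbols of this cluster were as dim. The one with 4 symbols was at 4.08 and 4.38 with IgG and 3.83 and 3.84 with the RBP antibody, and the one with 2 symbols at 3.97 and 3.59 against 3.38 and 3.35. Neighbouring genes of this kind are similar in sequence, so how their probe sets divide the RNA is uncertain.

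All 5 lower calls of the family were lost after centring, with quantile normalization and without either RBP array, and with the trend on level removed 4 were, all but Fbxl15. For Fbxl15, Fbxl7, Fbxo17, Fbxw22 and Fbxw21 limma's adjusted p without RBP array 1 was 0.189, 0.137, 0.24, 0.304 and 0.287, and without RBP array 2 it was 0.199, 0.333, 0.193, 0.119 and 0.252. Without IgG array 1, Fbxl7 (0.0727) and Fbxw22 (0.0642) missed, and without IgG array 2 Fbxl15 (0.0513) and Fbxl7 (0.0583). None of the 5 differences changed sign in any alternative.

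The 9 Fbxw genes outside the cluster were recovered more with the RBP antibody or about equally. Limma called 6 higher and 0 lower (at an unadjusted p under 0.05, 6 and 0), with a median of 0.90. Above background lay 8 of the 9, where 36.5% of all genes were higher. At an unadjusted limma p under 0.05, 5793 of the 12828 genes above background were higher and 1557 lower. Fbxw7, the adaptor for cyclin E, MYC, JUN and NOTCH, was at 5.83 and 6.07 with IgG against 6.90 and 7.07 with the RBP antibody. Its arrays were close within each group and the difference was 1.03 ± 0.16 (SE; adjusted p = 0.00896 by limma), kept with quantile normalization (1.12) and with the trend on level removed (0.88). A second Fbxw7 probe set, at 3.83 to 4.37 and below background, gave 0.14 ± 0.22 (limma over all probe sets, adjusted p = 0.648), and the mean of both was not called (0.59, adjusted p = 0.0648).

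Fbxw11, one of the pair of beta-TrCP proteins that turn over beta-catenin and the NF-kappaB inhibitor, was at 8.13 and 8.22 with IgG against 9.20 and 9.16 with the RBP antibody. The arrays of each group nearly coincided, and the difference was 1.01 ± 0.14 (SE; adjusted p = 0.0071 by limma). Its paralogue Btrc, not in the family by symbol, was at 8.50 and 8.65 with IgG against 9.28 and 9.10 with the RBP antibody and differed by 0.62 ± 0.16 (SE; adjusted p = 0.0325 by limma). Fbxw4, known from limb development, was at 6.39 and 6.83 with IgG against 7.77 and 7.48 with the RBP antibody, a difference of 1.01 ± 0.21 (SE; adjusted p = 0.0184 by limma). Fbxw8, the partner of the cullin CUL7, gave 1.001 ± 0.15, Fbxw2 0.90 ± 0.19 and Fbxw5, a regulator of centriole duplication, 0.86 ± 0.14, with limma's adjusted p of 0.00762, 0.0197 and 0.0102.

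These 6 Fbxw genes missed the adjusted threshold when either RBP array was left out, where calls over all genes fell as well. None of the 6 differences changed sign in any alternative. Limma's adjusted p without RBP array 1 was 0.0519 for Fbxw7, 0.063 for Fbxw11, 0.12 for Fbxw4, 0.0635 for Fbxw8, 0.0813 for Fbxw2 and 0.0956 for Fbxw5. Without RBP array 2 it was 0.0696, 0.0525, 0.0544, 0.057, 0.123 and 0.0766 in the same order, so none passed. Apart from Fbxw7 they also lost their calls with quantile normalization (limma, adjusted p of 0.0514 to 0.26) and with the trend on level removed (0.178 to 0.722). Fbxw17 (0.31 ± 0.18) and Fbxw9 (0.12 ± 0.18) did not pass, although Fbxw17 did after centring (limma, adjusted p = 0.031), and Fbxw10 lay below background.

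Of the 7110 genes at or below background, limma put 120 higher and 1384 lower at an unadjusted p under 0.05. Below background and outside the cluster were 12 members in all, and limma called none of them (at that p, 1 higher and 1 lower). Apart from Fbxl4 and Fbxl12os, the 10 of these (Fbxl13, Fbxl16, Fbxl21, Fbxo15, Fbxo16, Fbxo24, Fbxo39, Fbxo43, Fbxo47 and Fbxw10) gave differences of -0.36 to 0.28. Only Fbxo47 among the 10 passed in an alternative, after centring on the chemosensory genes.

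Genes listed as F-box proteins with other names are counted beside the family, and whether each codes for an F-box was not checked. Of 11 such genes limma called 5 higher and 1 lower (45.5% higher). Their median level was 7.78, and of all genes at 7 to 8 47.1% were higher. Fbh1, a DNA helicase with an F-box once named Fbxo18, was at 6.96 and 6.91 with IgG against 8.67 and 8.59 with the RBP antibody, a difference of 1.69 ± 0.14 (SE; adjusted p = 0.00558 by limma). Kdm2b and Kdm2a, histone demethylases of the Fbxl kind, differed by 1.504 ± 0.17 and 1.18 ± 0.17, and Ccnf, the cyclin F that founded the family, by 1.14 ± 0.26. Skp2, the adaptor for the inhibitor p27, gave 0.55 ± 0.20 and was not called (0.0887 by limma, adjusted). Nccrp1 was lower, at -0.77 ± 0.18.

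The shared core of the ligase had calls in either direction. Of 14 core and E2 genes measured, 3 were higher and 2 lower, with a median of 0.19. Their median level was 9.63. The 21.4% higher stand beside 57.8% of all genes at 9 to 10, and the 14.3% lower beside 2.97%. The linker gene Skp1 was at 10.16 and 9.80 with IgG against 9.24 and 9.13 with the RBP antibody, below in both RBP arrays, a difference of -0.80 ± 0.18 (SE; adjusted p = 0.0233 by limma). The scaffold gene Cul1 was at 9.07 and 9.20 with IgG against 10.31 and 10.29 with the RBP antibody, above in both, a difference of 1.16 ± 0.15 (SE; adjusted p = 0.00599 by limma). Cul7, the scaffold that works with Fbxw8, differed by 1.56 ± 0.16 and the RING gene Rnf7 by 0.85 ± 0.18, whereas Rbx1 gave 0.54 ± 0.31 and did not pass. The E2 gene Ube2d1 was lower, at -1.11 ± 0.16. With the trend on level removed Skp1, Ube2d1 and Cul7 kept their calls (-1.52, -1.85 and 0.78), and Cul1 did not (0.45).

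Cullins work only when coupled to NEDD8, and CAND1 exchanges the F-box proteins on CUL1. Of 22 genes of neddylation, CAND proteins and the COP9 signalosome, 12 were higher and 0 lower by limma (at an unadjusted p under 0.05, 16 and 0), with a median of 0.73 that fell to -0.014 with the trend on level removed. Their median level was 8.41, and the 54.5% higher were near the 56.4% of all genes at 8 to 9. At an unadjusted limma p under 0.05, 1575 of the 2329 genes at 8 to 9 were higher and 84 lower. The NEDD8 ligase helper Dcun1d2 differed by 1.98 ± 0.17, the NEDD8 protease Senp8 by 1.48 ± 0.24, Cand1 by 1.45 ± 0.16 and the NEDD8-activating subunit Uba3 by 1.16 ± 0.24.

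Among genes of proteins that F-box ligases turn over, 19 of 31 were higher and 0 lower by limma (at an unadjusted p under 0.05, 22 and 1), with a median of 0.78, and 2 were higher with the trend on level removed. Ireb2, the substrate side of Fbxl5, differed by 1.75 ± 0.15 beside 0.97 ± 0.22 for Fbxl5. Ccp110, a centriole protein turned over through Ccnf, differed by 1.41 ± 0.14, the repressor gene Rest by 1.30 ± 0.25 and Ctnnb1, the beta-catenin gene, by 1.28 ± 0.16. Of the Fbxw7 targets named above, Ccne1 differed by 0.93 ± 0.17, Notch1 by 1.18 ± 0.32 and Jun by 0.69 ± 0.14. Ccne2 gave 0.61 ± 0.23 and Myc 0.25 ± 0.14, and neither was called (0.098 and 0.212 by limma, adjusted). The median level of the 31 was 8.96, and their 61.3% higher stand near the 56.4% of all genes at 8 to 9 and 57.8% at 9 to 10. Higher at an unadjusted limma p under 0.05 were 1575 of the 2329 genes at 8 to 9 and 1129 of the 1650 at 9 to 10. Lower at that p were 84 and 72.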

How the data were processed

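RNA from 4 immunoprecipitates, 2 with control IgG and 2 with an RBP antibody, was hybridised to 1 whole-transcript array each. The values deposited by the authors are log2 levels per probe set, made with RMA in affy per the submitters' processing notes. Which version of affy was run, and with which background correction, was not stated there. The deposited columns differ in median and spread. The platform annotation pairs 21789 of the 35556 probe sets with 1 gene symbol, 1621 with several and 12146 with none, and 21698 matched the RefSeq gene table by Entrez identifier, which changed 0 symbols. Each of 19938 genes was represented by its brightest probe set.

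Differences were fitted in R 4.3.3 with limma 3.58.1 (lmFit and eBayes) over all genes, two-sided, and p-values were adjusted by Benjamini-Hochberg and called under 0.05. Each gene had 2 residual degrees of freedom, to which eBayes added 3.76. The median standard error was 0.170. The fit was tested on simulated data. Background was the 95th percentile of 1231 chemosensory genes. Alternatives were quantile normalization of all probe sets, centring each array on its chemosensory median, eBayes with its trend and robust options, a filter at background, the mean over probe sets, omission of each array, the replicate number as a block, and subtraction of a loess fit (span 0.3) of difference on level. Every member could be named. Values on each array are given for the 14 most positive and 6 most negative members, the called lower ones and a fixed set of known genes where measured. They are also given for some, not all, of the members whose call turned on a setting. Up to 4 genes of each other list were taken by size of difference. Skp1, Skp2, Nccrp1, Rbx1, Ccne1, Ccne2, Notch1, Jun and Myc were added after their values had been seen. So were the grouping of Fbxw genes by position and of Fbxo genes by their glycoprotein-binding subfamily. The members and lists were chosen with earlier results of these data known.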

Additional observations from a re-analysis of the deposited data

How the results depend on the processing

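Of 61 members followed by name, 30 were called with the values as deposited, and Fbxo45 alone kept both direction and call in all 11 alternatives. The higher calls fell from 25 to 4 with the trend on level removed and to 8 with quantile normalization, and ran from 8 to 27 when each array was left out. Over all genes they went from 4741 to 999 and 2207, and to 1724 and 2058 without RBP array 1 or 2. The lower calls went from 5 to 0 after centring, 3 with the filter on level (where fewer genes were tested), 1 with the trend removed and 0 with quantile normalization, and ran from 0 to 5 without single arrays; limma at an unadjusted p under 0.05 gave 0 lower after centring, 2 with quantile normalization and 1 without either RBP array. Other causes were not tested. Without an RBP array the spread comes from the IgG pair alone.

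The member median moved from 0.19 to 0.50 after centring, 0.63 with the filter and 0.070 with the trend removed, and ran from 0.17 to 0.35 without single arrays. The Fbxl median was 0.46 after centring and 0.40 with the filter. The Fbxo median was 0.80 after centring, 0.070 with the trend removed and 0.22 with quantile normalization. The Fbxw median was 0.33, 0.95, 0.12 and 0.23 after centring, with the filter, with the trend removed and with quantile normalization. Without single arrays the 3 class medians ran from 0.11 to 0.20, 0.35 to 0.49 and -0.027 to 0.025.

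Signs turned after centring for Fbxo6 0.31, Fbxw15 0.29, Fbxl12os 0.21, Fbxw26 0.18, Fbxo27 0.18, Fbxw13 0.10, Fbxo44 0.086 and Fbxw20 0.022. They turned with the trend removed for Fbxl17 -0.0025, Fbxo30 -0.092, Fbxo21 -0.11, Fbxo22 -0.15, Fbxo3 -0.13, Fbxo8 -0.25, Fbxo7 -0.28, Fbxl14 -0.33, Fbxl18 -0.31, Fbxl12 -0.078, Fbxo34 -0.59, Fbxw9 -0.12, Fbxo36 -0.42, Fbxl6 -0.73, Fbxw15 0.21, Fbxl12os 0.13, Fbxw26 0.10, Fbxo27 0.061 and Fbxw13 0.018, and with quantile normalization for Fbxo7 -0.0098, Fbxl14 -0.066, Fbxl18 -0.030, Fbxo34 -0.32, Fbxo36 -0.085, Fbxl6 -0.47, Fbxw15 0.23, Fbxl12os 0.27, Fbxw26 0.21, Fbxo27 0.17, Fbxw13 0.15, Fbxo44 0.038 and Fbxw20 0.068. Over the arrays left out in turn, the genes that turned ran as Fbxw9 -0.077 to 0.32, Fbxo4 -0.26 to 0.49, Fbxo32 -0.051 to 0.21, Fbxo36 -0.56 to 0.70, Fbxl6 -0.088 to 0.18, Fbxo6 -0.17 to 0.16 and Fbxo27 -0.27 to 0.00092. Of the genes in these lists, Fbxo21, Fbxo22 and Fbxo30 had been called with the values as deposited. The lists cover the 61 members followed by name and leave out the 10 dim uncalled ones. Among those 10, Fbxo16, Fbxl13, Fbxo15 and Fbxo24 also turned with the trend removed (0.12, 0.070, 0.078 and 0.0021). Turns of those 10 under the other settings, centring among them, are not listed here.

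With the replicate number as a block, 29 members were higher and 6 lower, including all 30 called without it; those gained were Fbxl4, Fbxl17, Fbxo3 and Fbxo8 (higher) and Fbxw18 (lower). Over genes, the difference between the IgG arrays correlated with that between the RBP arrays at r = 0.255, but with 2 numbers this does not show that they pair the samples. The trend and robust options, and the mean over probe sets, left the counts within 1.5 times. The number of arrays and levels near background limit the precision.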
